A study of Rattus norvegicus with 30 samples.

Results

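The genes described here code for inducible transcription factors and early response proteins of the heart: Egr1, Egr2, Egr3, Egr4, Klf4, Nr4a1 and Atf3, with the early response genes Ier3 and Ier5. They were taken by gene symbol, and 17 probe sets of the array carried one of the 9 symbols, out of 4736 genes named by a probe set of a single symbol. All 17 probe sets passed the filter on low signal. The 9 genes were selected on values of these same arrays, among them their intensity in the ischaemic and preconditioned hearts, so the comparisons of the ischaemic and preconditioned hearts with controls, and of each preconditioning protocol with its trigger, are given as descriptions without p-values. RNA of rat left ventricle was read on 30 Affymetrix arrays, with 5 biological replicates in each of 6 groups. The groups were control (CTL), ischemia (ISCH), ischemic preconditioning (IPC), anesthetic preconditioning (APC), and the trigger of each kind of preconditioning by itself (IPC_TRI and APC_TRI). The keywords of the labels set ischemia/reperfusion against both kinds of preconditioning. The anaesthetic, the lengths of the ischaemic periods, and the strain, sex and age of the rats are not stated in the labels. All groups consist of whole ventricular tissue, in which fewer cells of a type and less RNA per cell cannot be told apart.

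Immediate early genes are transcribed within minutes of a stimulus from factors already present in the cell, with no need for new protein. Serum response factor bound at CArG boxes, together with ETS-domain partners, and CREB bound at cAMP response elements are the classical routes to the Egr genes, and Nr4a1 responds to calcium and cAMP signals. In the heart, stretch, catecholamines and the return of blood flow after ischaemia are known inducers of Egr1 and Atf3.

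As to the label of the tissue, heart muscle was borne out by cardiomyocyte markers, all 10 of which were on the array. Myh6, the alpha myosin heavy chain, read between 23027 and 48173 intensity units over the 30 arrays. Markers of atrium, 3 of 4 on the array, summed to between 1632 and 2993 in CTL. The sums lay between 1953 and 12879 in APC_TRI, between 1372 and 3798 in IPC_TRI and between 1437 and 1944 in ISCH. They lay between 999 and 2465 in APC and between 1064 and 1846 in IPC. Of these 3 markers 0 were called in either trigger against CTL, and a part of atrial tissue was not tested. A pair of arrays stood apart from their groups. The mean correlation with the other arrays of the group was lowest for IPC_TRI replicate 5, at 0.853, and for ISCH replicate 1, at 0.905, whereas the control arrays lay between 0.952 and 0.965. For the 9 genes, values printed below for the probe set that stands for the gene are also given without the array concerned where its absence changed a call or moved the value by over 1.5 times. The log2 ratio of the 3′ to the 5′ beta-actin control probe sets is a measure of RNA integrity and of the labelling reaction. It ran from -0.31 to 0.31 in CTL, from -0.98 to 0.05 in IPC_TRI and from -0.70 to -0.01 in APC_TRI. In ISCH it ran from 0.25 to 0.42, in IPC from -0.12 to 0.49 and in APC from -0.28 to 0.37. The same ratio for GAPDH lay the other way in the triggers. It ran from -0.24 to 0.01 in CTL, from 0.05 to 0.30 in IPC_TRI and from 0.04 to 0.42 in APC_TRI. In ISCH the GAPDH ratio ran from -0.22 to 0.22, and it was not used as a covariate. Fibroblast markers, 8 of 8 on the array and none at 0, summed to between 23019 and 29502 intensity units in CTL, to between 36465 and 75370 in IPC_TRI and to between 39308 and 43395 in APC_TRI, without overlap between either trigger group and CTL. They summed to between 36627 and 70355 in ISCH, between 28310 and 54487 in IPC and between 22239 and 33672 in APC. Such sums weigh the brightest markers most, and most of the fibroblast markers did not rise in the triggers. The median log2 change of the 8 was -0.20 in IPC_TRI and -0.26 in APC_TRI, with 2 and 3 of them above 0. In each trigger 1 of the 8 was called higher and 0 lower. In ISCH all 8 were above 0 against CTL, at a median of 0.80. There 5 were called higher and 0 lower, where 3.39% and 4.91% of all genes were. The median against CTL was 0.27 in IPC and 0.01 in APC, with 7 and 4 above 0 and 0 called. Set against ISCH, the median was -0.61 in IPC and -0.84 in APC, with 0 of the 8 above 0 and 0 called. Markers of endothelium, of which 7 of 10 were on the array, summed to between 3795 and 4733 in CTL. They summed to between 3569 and 4741 in IPC_TRI, between 3397 and 5715 in APC_TRI and between 2509 and 4025 in ISCH. The sums lay between 2606 and 3885 in IPC and between 2499 and 3366 in APC, the last without overlap with CTL. Singly the 7 did not move together. Their median log2 change from CTL was 0.25 in ISCH, -0.43 in IPC and -0.05 in APC, with 4, 3 and 3 above 0. In ISCH 1 was called higher and 2 lower, where 3.39% and 4.91% of all genes were. In IPC 1 and in APC 2 were called lower, where 2.09% and 2.19% of all genes were, and 0 higher. Markers of nerve and Schwann cells, 3 of 4 on the array and none at 0, summed to between 423.4 and 621.5 in CTL, between 398.5 and 665.1 in IPC_TRI, between 372.8 and 671.1 in APC_TRI and between 594.6 and 1137.6 in IPC. They were clear of CTL in ISCH, at 837.5 to 1307.7, and in APC, at 711.5 to 963.8. The part of these cell markers in the changes below was not tested.

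Among the 9 genes, Klf4, Egr1 and Nr4a1 were higher than in controls in ISCH, IPC and APC. Egr2 was called higher in IPC, and in APC it was not called in the main fit. It was called in APC under 8 of 11 alternatives, but in 0 of the 10 fits that left out 1 array. In ISCH, 3 of the 9 genes were called higher at an adjusted p under 0.05, where 3.39% of the 3155 genes tested were called higher and 8.30% were called in either direction. In IPC, 4 were called higher against 1.52% of all genes, and in APC 3 against 1.08%. None of the 9 was called lower in these 3 groups, where 4.91%, 2.09% and 2.19% of all genes were. In either direction, 3.61% of all genes were called in IPC and 3.26% in APC. Counted as probe sets, 7 of the 17 were called in ISCH, 8 in IPC and 8 in APC, where 8.77%, 3.89% and 3.66% of the 5244 probe sets tested were. These shares rest on contrasts that helped to choose the genes and are shown for scale. The 3 contrasts also share the 5 control arrays. The median log2 change of the 9 genes was 0.36 in ISCH, 0.57 in IPC and 0.53 in APC, and the single genes spread from -0.35 to 1.96, from -0.78 to 2.49 and from -0.30 to 2.18.

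**Figure D1:**
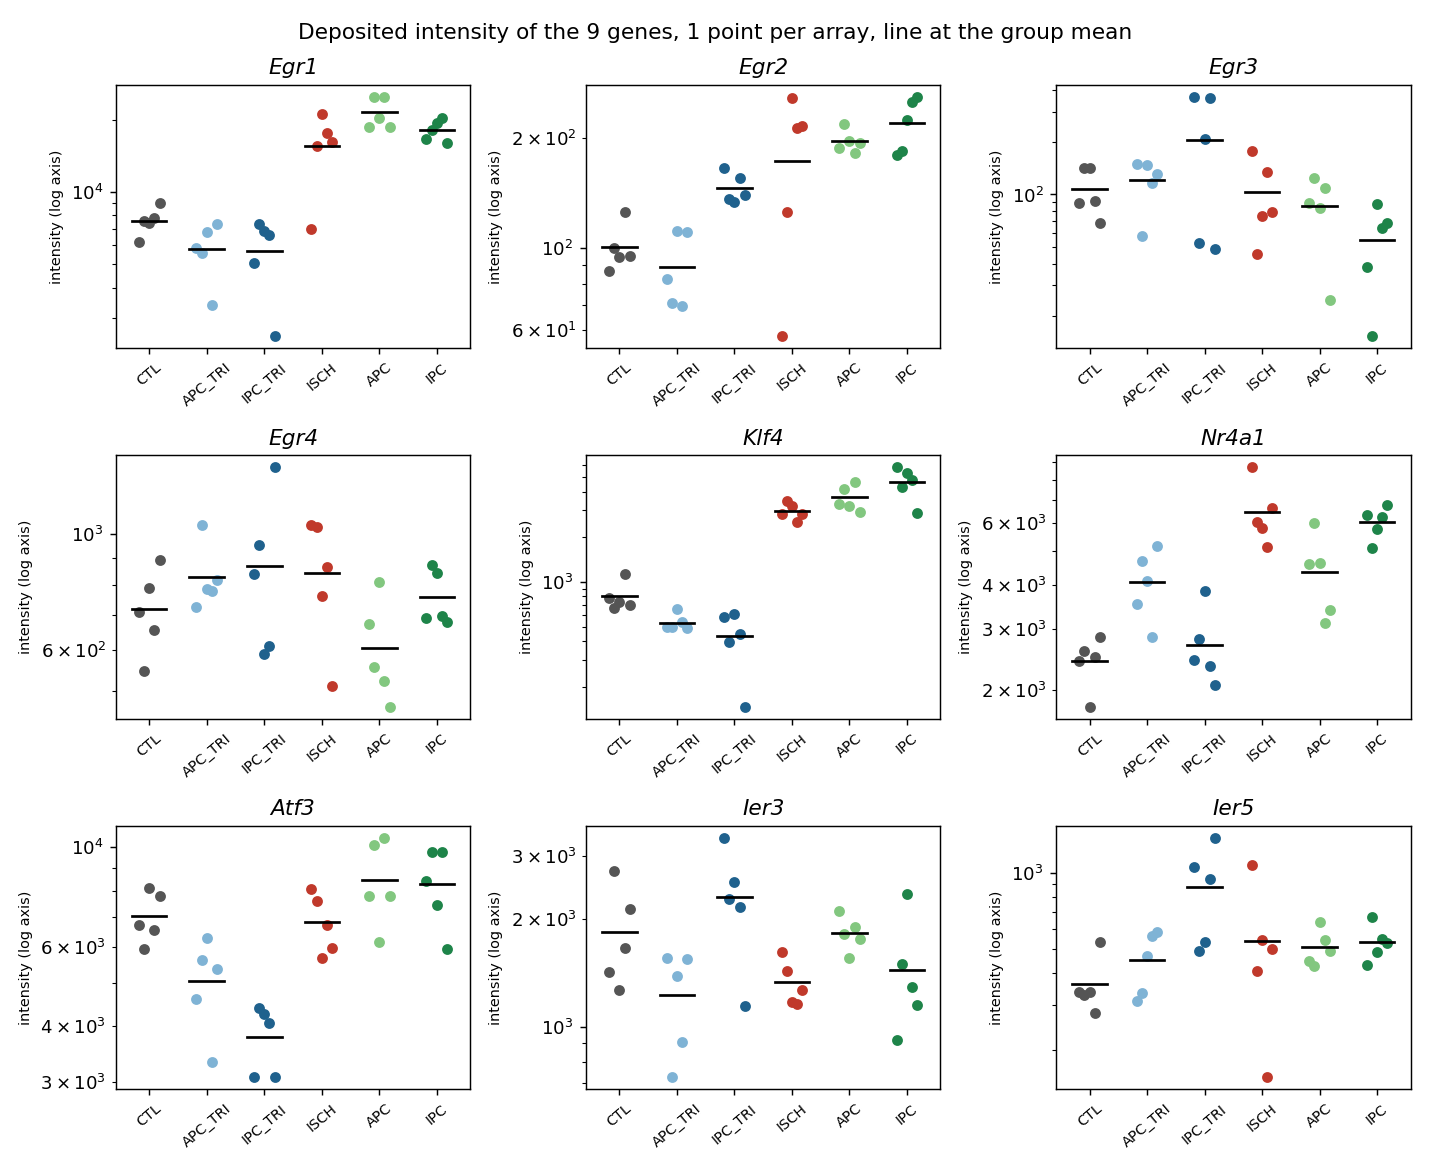
Deposited intensity (arbitrary units, log axis) of the 9 genes in the 6 groups, 1 point for each of the 5 arrays and a line at the group mean. All Klf4 values in ISCH, APC and IPC lie at or above 2505.1, and all those in CTL, APC_TRI and IPC_TRI lie at or below 1135.6.

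Klf4, a Krüppel-like zinc finger factor that restrains inflammation in endothelium and is induced by stress in many cells, had the widest range of the 9. The control arrays read 783.0, 667.2, 729.2, 1135.6 and 704.8 intensity units. In ISCH the 5 arrays read 2860.3, 3476.7, 3212.9, 2505.1 and 2837.4. Every ischaemic heart was above every control heart, and the mean was 2979 ± 375 (SD, n = 5) against 804 ± 190. The APC arrays read 3334.7, 4170.3, 3214.0, 4673.8 and 2944.2 units, and the IPC arrays read 5818.4, 4273.7, 5337.2, 4808.6 and 2865.1. Both preconditioned groups lay clear of the controls and overlapped with each other and with ISCH. After quantile normalization the log2 change from CTL was 1.96 ± 0.28 (SE) in ISCH, 2.18 ± 0.28 in APC and 2.49 ± 0.28 in IPC, which are 3.90-fold, 4.53-fold and 5.61-fold.

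Klf4 was lower than in controls where the trigger was given by itself, and passed the test in IPC_TRI. In that group the arrays read 579.7, 397.9, 614.4, 445.3 and 146.8 units, and in APC_TRI they read 499.1, 498.1, 655.3, 535.4 and 488.6. Every trigger array was below every control array in both groups. Klf4 fell by 1.02 on the log2 scale in IPC_TRI (SE 0.28, adjusted p = 0.0137, limma), a 2.03-fold drop. Without IPC_TRI replicate 5 it fell by 0.59 (adjusted p = 0.0313). The call was lost when only the CTL and IPC_TRI arrays were fitted (adjusted p = 0.141), with array weights (log2 change -0.72, adjusted p = 0.0518) and with the beta-actin ratio as a covariate (-0.59, adjusted p = 0.233). In APC_TRI the log2 change was -0.52 ± 0.28 (adjusted p = 0.243). A fainter probe set made from the same clone, which shares its target sequence and so is no independent measurement, read between 259.1 and 569.5 in CTL, between 17.1 and 239.3 in IPC_TRI and between 77.3 and 214.4 in APC_TRI. On that probe set Klf4 fell by 2.56 in IPC_TRI (adjusted p = 6.34e-05) and by 1.49 in APC_TRI (adjusted p = 0.0144). Set in order, the group means of Klf4 ran from IPC_TRI through APC_TRI, CTL, ISCH and APC to IPC. Of the neighbours in that order, APC_TRI and CTL, and CTL and ISCH, differed by more than the larger SD of the pair and did not overlap. The other neighbours differed by less than that SD.

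Egr1, a zinc finger factor that in vascular and cardiac cells drives growth factor, coagulation and inflammatory genes, had the highest mean signal rank of the 9, above 98.6% of probe sets. Control hearts read 6200.0, 7577.5, 7421.9, 7783.5 and 9022.5 units. The ISCH arrays read 7025.0, 15645.8, 21269.3, 17586.9 and 16218.2. ISCH replicate 1, which stood apart from its group over all probe sets, was inside the control range on this probe set, the brightest of Egr1. The other 4 arrays were above that range. APC hearts read 18763.0, 24971.7, 20376.0, 24971.1 and 18648.7 units, and IPC hearts read 16656.0, 18162.9, 19356.5, 20407.9 and 16060.4. All 10 preconditioned hearts were above all controls. The log2 change from CTL was 0.83 ± 0.23 in ISCH, 1.55 ± 0.23 in APC and 1.31 ± 0.23 in IPC. Without ISCH replicate 1 the change in ISCH was 1.05 ± 0.21. The call in ISCH was lost without CTL replicate 1 (0.77), ISCH replicate 3 (0.71) or ISCH replicate 5 (0.76), with median centring (0.86) and with the beta-actin ratio as a covariate (0.70). ISCH replicate 1 was above all controls on other Egr1 probe sets, at 3528.1 against at most 3382.4 and at 4126.6 against at most 2967.2. On the faintest Egr1 probe set it read 1629.1 against at most 1632.6 in CTL.

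With the triggers alone, Egr1 read 5073.6, 7340.7, 6920.4, 6609.2 and 2513.0 units in IPC_TRI and 5846.1, 5560.4, 6796.5, 3391.5 and 7374.3 in APC_TRI. Both groups overlapped with the controls. The log2 change was -0.52 ± 0.23 in IPC_TRI (adjusted p = 0.110) and -0.47 ± 0.23 in APC_TRI (adjusted p = 0.188), and neither passed. Egr1 has 4 probe sets on the array, and the log2 changes in IPC_TRI ranged over them from -0.71 to -0.06. Of these, 2 passed the test as lower, with adjusted p of 0.0349 and 0.0304. Without IPC_TRI replicate 5 the change of the brightest Egr1 probe set was -0.28 (adjusted p = 0.392). In ISCH the 4 probe sets ranged from 0.48 to 1.02, in IPC from 0.55 to 1.41, and in APC from 0.88 to 1.55, all above 0. From lowest to highest, the Egr1 group means ran IPC_TRI, APC_TRI, CTL, ISCH, IPC and APC, and every neighbouring pair overlapped.

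The sequence before the Egr1 start is shown because it holds 2 CArG boxes. Sequence further upstream was not searched. RefSeq promoter windows of 300 bases (assembly GRCr8, 250 bases before and 50 from the transcript start onward) were held for 6 of the 9 genes: Egr1, Egr2, Egr4, Klf4, Nr4a1 and Ier5. In the lines that follow, capitals mark CArG boxes, or the core TGACG of the cAMP response element read on the other strand. The Egr1 stretch is chr18:26736828-26737077 on the plus strand, the Egr4 stretch is chr4:119607818-119608067 on the minus strand, and the Ier5 stretch, which held no match, is chr13:69822543-69822792 on the minus strand.
Egr1: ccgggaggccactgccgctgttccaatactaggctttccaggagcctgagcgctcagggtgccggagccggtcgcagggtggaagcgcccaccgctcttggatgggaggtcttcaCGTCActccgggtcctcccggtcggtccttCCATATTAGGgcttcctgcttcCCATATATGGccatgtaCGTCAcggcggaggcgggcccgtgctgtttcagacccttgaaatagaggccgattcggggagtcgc
Egr4: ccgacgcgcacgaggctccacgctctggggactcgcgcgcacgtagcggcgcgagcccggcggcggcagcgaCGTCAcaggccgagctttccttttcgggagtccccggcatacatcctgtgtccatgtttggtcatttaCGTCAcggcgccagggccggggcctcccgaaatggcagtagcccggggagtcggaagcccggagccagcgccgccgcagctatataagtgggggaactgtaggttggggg
Ier5: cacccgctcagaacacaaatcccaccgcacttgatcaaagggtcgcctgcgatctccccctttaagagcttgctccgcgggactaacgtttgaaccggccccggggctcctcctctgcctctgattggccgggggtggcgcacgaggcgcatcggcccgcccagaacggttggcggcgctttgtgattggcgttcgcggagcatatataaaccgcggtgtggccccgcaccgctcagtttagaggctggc

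Both CArG boxes of the Egr1 window are printed with 10 bases on each side, so that the letters can be compared. So is the single one of the Egr2 window, at chr20:21054505-21054534 on the minus strand. Distal and proximal name the order of the Egr1 boxes within the window.
Egr1 distal box: gtcggtccttCCATATTAGGgcttcctgct
Egr1 proximal box: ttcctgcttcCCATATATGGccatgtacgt
Egr2 box: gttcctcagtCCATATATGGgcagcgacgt
The Egr1 boxes lie at positions -105 to -96 and -83 to -74 from the transcript start, and the Egr2 box lies at -83 to -74 as well. Of all 33469 windows in the RefSeq table, 1.64% held a CArG box on either strand. Egr4, Klf4, Nr4a1 and Ier5 had none in their windows. The core TGACG, in 21.2% of all windows, had 2 matches in Egr1, 1 in Egr2, 2 in Egr4 and 4 in Nr4a1. The full palindrome of the cAMP response element, in 1.83% of windows, was found in none of the 6. The Egr consensus site, in 4.98% of windows, had 1 match in Nr4a1. CCGGAA, an extended form of the ETS core, was in 14.95% of windows and had 1 match each in Egr2 and Nr4a1. Shorter ETS sites were not searched, so a window without CCGGAA, such as that of Egr1, can still hold them. The windows of Egr2, Klf4 and Nr4a1 do not begin from the annotated start of the gene, so positions there count from the transcript start of the table, and other starts were not searched. These matches describe letters within a window and not binding.

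**Figure D2:**
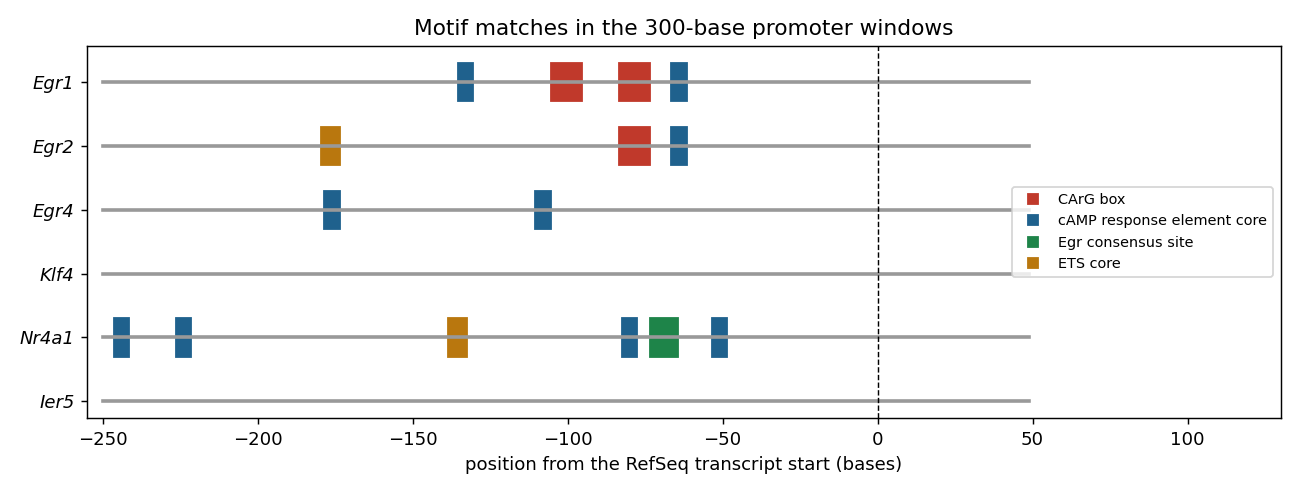
Motif matches on either strand (coloured boxes) in the promoter windows of 6 genes, by position in bases from the RefSeq transcript start (dashed line). The ETS core is shown only in the extended form CCGGAA. Egr1 and Egr2 hold CArG boxes, with 2 in Egr1 and 1 in Egr2, Nr4a1 holds 4 TGACG cores, and the Klf4 and Ier5 windows hold no match.

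Egr2, the Egr factor best known for myelination in Schwann cells and hindbrain patterning in mice, was faint, with a mean above that of 53.4% of probe sets. Its single probe set read 86.9, 100.3, 94.9, 125.7 and 95.3 units in CTL. IPC hearts read 179.6, 185.0, 224.2, 251.0 and 259.3, and APC hearts read 188.0, 218.4, 197.0, 182.2 and 194.5. All preconditioned hearts were above all controls. In ISCH the arrays read 57.6, 125.5, 257.1, 212.8 and 215.3, the lowest again being replicate 1. The log2 change from CTL was 1.02 ± 0.26 in IPC, 0.88 ± 0.26 in APC and 0.48 ± 0.26 in ISCH, or 0.83 ± 0.20 in ISCH without replicate 1, where Egr2 was then called higher. IPC and APC differed by 0.14 ± 0.26 for Egr2, which did not pass. Its call in IPC was lost without CTL replicate 1 (0.97), CTL replicate 3 (0.98), IPC replicate 4 (0.96) or IPC replicate 5 (0.97) and with the beta-actin covariate (0.93). IPC_TRI hearts read 166.2, 136.8, 134.3, 156.1 and 139.7, and APC_TRI hearts read 82.4, 71.1, 111.3, 69.5 and 110.6. On the deposited scale every IPC_TRI value was above every control value, but after quantile normalization the groups overlapped and the log2 change was 0.26 ± 0.26 (adjusted p = 0.526). The median intensity of whole arrays ran from 118.5 to 189.2 in IPC_TRI and from 120.1 to 134.6 in CTL. In APC_TRI the log2 change of Egr2 was -0.25 ± 0.26 (adjusted p = 0.587).

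Egr3, needed for muscle spindle formation in mice, and Egr4, best known from neurons and the germ line, did not pass in any comparison of the main fit on the probe set that stands for the gene. Egr3 lay near the filter, with a mean above that of 44.2% of probe sets where 40% were left out. It read between 68.5 and 142.9 in CTL, between 15.3 and 88.5 in IPC, and between 48.8 and 364.4 in IPC_TRI. The IPC_TRI values fell on both sides of the control range, and the log2 change was 0.29 ± 0.47 (adjusted p = 0.71), or 0.75 ± 0.44 without IPC_TRI replicate 5 (adjusted p = 0.268). In IPC against IPC_TRI Egr3 was at -1.07 ± 0.47. It was called lower there without IPC_TRI replicate 5 (-1.54) or replicate 2 (-1.40), with array weights (-1.61) and on the values as deposited (-1.38). Egr4 read between 545.8 and 892.1 in CTL, between 510.9 and 1039.8 in ISCH and between 589.7 and 1341.6 in IPC_TRI, with overlap throughout. That Egr4 probe set carries the maker's suffix for probes shared within a sequence family. The second Egr4 probe set went the other way in 7 of the 11 contrasts. In APC against APC_TRI the second probe set was called higher in the main fit, at a log2 change of 1.16 ± 0.38. There the family probe set gave -0.42 ± 0.21, not called in the main fit but called lower with array weights (-0.52). The direction for Egr4 is thus not settled by these arrays.

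Nr4a1, also known as Nur77, is an orphan nuclear receptor induced by calcium and beta-adrenergic signals. In control hearts it read 2434.5, 2600.5, 1798.0, 2494.0 and 2840.3 units. ISCH hearts read 8671.6, 6048.0, 5830.8, 5129.4 and 6630.7, and IPC hearts read 6355.4, 5119.6, 5788.0, 6253.2 and 6766.3. Both groups were clear of the controls, at means of 6462 ± 1347 and 6057 ± 629 (SD, n = 5) against 2434 ± 388. APC hearts read 4601.4, 6009.1, 4631.1, 3123.0 and 3394.7, also all above the controls. The log2 change from CTL was 1.41 ± 0.19 in ISCH, 1.30 ± 0.19 in IPC and 0.80 ± 0.19 in APC.

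Nr4a1 was the one gene of the 9 called higher in the anaesthetic trigger, where 3.61% of all genes were. The log2 change was above 0 for 4 of the 9. The APC_TRI arrays read 3540.5, 4686.7, 4103.9, 2839.3 and 5179.5 units, so that 4 of 5 lay above all controls and the remaining one reached 2839.3 against the highest control of 2840.3. The log2 change of Nr4a1 was 0.74 ± 0.19 (adjusted p = 0.0113, limma), a 1.68-fold rise. The second probe set, from the same clone, gave 1.01 ± 0.19 (adjusted p = 0.00133) with no overlap. With median centring in place of quantile normalization, the change was 0.66 and the adjusted p was 0.05002. In IPC_TRI the arrays read 2450.0, 2798.9, 3834.3, 2353.2 and 2067.6, and 0.23 ± 0.19 did not pass (adjusted p = 0.410). Set directly against each other, IPC_TRI minus APC_TRI gave a log2 change of -0.52 ± 0.19, which did not pass either (adjusted p = 0.177). The Nr4a1 group means were ordered CTL, IPC_TRI, APC_TRI, APC, IPC and ISCH. APC_TRI and APC were neighbours, 0.06 apart on the log2 scale against an SD of 0.41.

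Atf3 is a leucine zipper factor of the integrated stress response that acts mostly as a repressor. Control hearts already read 6704.6, 5934.2, 8117.1, 6545.9 and 7799.2 units, a mean above that of 97.3% of probe sets over all arrays. IPC_TRI hearts read 3088.8, 4385.4, 4262.3, 4073.4 and 3081.7, and APC_TRI hearts read 4606.1, 5611.5, 6264.1, 3329.6 and 5368.6. Every IPC_TRI value was below every control, and 4 of 5 APC_TRI values were. Atf3 fell by 0.89 on the log2 scale in IPC_TRI (SE 0.18, adjusted p = 0.0012), from 7020 ± 910 to 3778 ± 642 units (SD, n = 5). In APC_TRI the log2 change was -0.51 ± 0.18 (adjusted p = 0.0626). Without ISCH replicate 1 and IPC_TRI replicate 5 in the fit the APC_TRI change was again -0.51, with an adjusted p of 0.0411.

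The ischaemic and preconditioned hearts showed no such separation of Atf3. ISCH hearts read 8088.4, 7607.1, 5682.8, 6698.0 and 5977.4, APC hearts read 7783.0, 10120.9, 6157.8, 10479.4 and 7796.6, and IPC hearts read 8418.1, 9748.9, 7440.5, 9767.6 and 5939.8. All 3 groups overlapped with the controls, and the log2 changes were -0.11 ± 0.18, 0.20 ± 0.18 and 0.20 ± 0.18. Without ISCH replicate 1 the first was -0.19. The order of the group means was IPC_TRI, APC_TRI, ISCH, CTL, APC and IPC.

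Ier5, an early response protein that in human cells helps to activate heat shock factor 1, read 336.3, 330.1, 338.0, 279.6 and 532.1 units in CTL. In IPC_TRI it read 1059.8, 488.9, 533.4, 948.4 and 1375.9, with 4 of 5 arrays above all controls. The rise was 1.22 ± 0.31 on the log2 scale (adjusted p = 0.0093), or 1.03 ± 0.32 without IPC_TRI replicate 5 (adjusted p = 0.035). With the beta-actin ratio as a covariate it was 1.08 and did not pass (adjusted p = 0.0707). The second, fainter Ier5 probe set of the same clone gave 0.17, which did not pass. APC_TRI hearts read 311.9, 335.2, 468.9, 560.2 and 584.4, a log2 change of 0.30 ± 0.31 (adjusted p = 0.583). In ISCH the values spread from 155.5 to 1070.0, the highest being replicate 1, and the log2 change from CTL was 0.36 ± 0.31 with that array and 0.05 ± 0.29 without it.

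Ier3, also called IEX-1, modulates ERK signalling and cell survival. It read 1426.1, 2720.5, 1271.5, 1658.7 and 2128.5 units in CTL, 3368.4, 2269.8, 2545.6, 2161.2 and 1143.6 in IPC_TRI, and 1555.1, 724.9, 1391.0, 908.1 and 1543.6 in APC_TRI. The lowest IPC_TRI value belonged to replicate 5 and lay inside the APC_TRI range, and the other 4 lay above that range. Neither trigger differed from CTL by the test, with log2 changes of 0.37 ± 0.26 (adjusted p = 0.323) and -0.54 ± 0.26 (adjusted p = 0.173). Without IPC_TRI replicate 5 the former was 0.60 ± 0.24 (adjusted p = 0.101). The difference between the triggers was 0.92 ± 0.26 (adjusted p = 0.0902), and 1.15 ± 0.24 (adjusted p = 0.0116) without IPC_TRI replicate 5. ISCH hearts read between 1156.3 and 1617.9, IPC between 921.6 and 2347.6 and APC between 1553.9 and 2112.3, all overlapping with CTL. The fainter Ier3 probe set of the same clone did not separate the triggers. It read between 700.7 and 1240.3 in IPC_TRI, with replicate 5 at 1100.3, and between 564.4 and 979.8 in APC_TRI. There the difference between the triggers was 0.46, which did not pass.

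**Figure D3:**
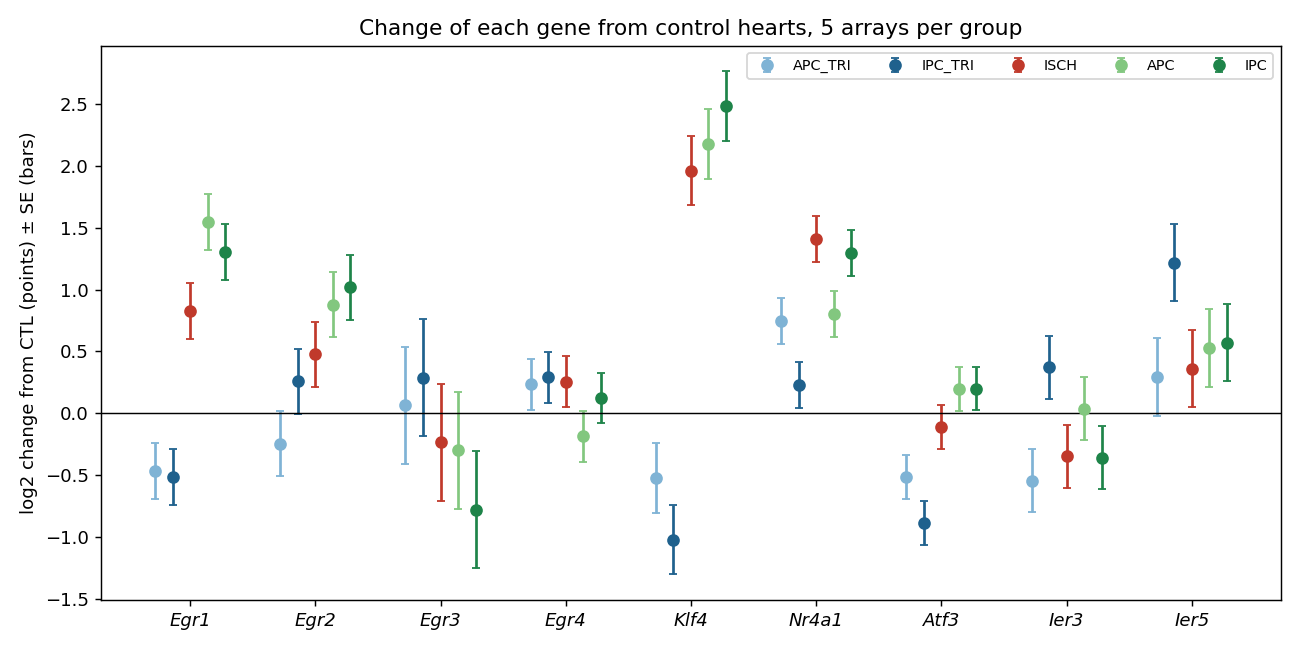
Log2 change from CTL (points) with SE (bars) for the 9 genes in the trigger, ischaemic and preconditioned groups, 5 arrays per group. Klf4, Egr1 and Nr4a1 are above 0 in ISCH, APC and IPC; in the triggers Klf4, Egr1 and Atf3 are below 0 and Nr4a1 is above 0, but at -0.08 in IPC_TRI under median centring.

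Counted over the 9 genes, the trigger of ischaemic preconditioning changed 3, with Ier5 higher and Klf4 and Atf3 lower. These comparisons share the control arrays with those of the ischaemic hearts. Of all 3155 genes, 15.7% changed in that contrast, 6.94% higher and 8.75% lower. The anaesthetic trigger changed 1 of the 9, Nr4a1, against 7.89% of all genes, of which 3.61% were higher and 4.28% lower. Of the 17 probe sets, 6 changed in IPC_TRI and 3 in APC_TRI, where 16.6% and 8.64% of all probe sets did. Without ISCH replicate 1 and IPC_TRI replicate 5 it changed 4, with Klf4 (log2 change -0.53, adjusted p = 0.0357), Egr1 (-0.47, adjusted p = 0.0354) and Atf3 added as lower. Of the 6 genes with several probe sets, Egr1, Klf4 and Ier5 had sets on both sides of the threshold in one trigger or the other.

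**Figure D4:**
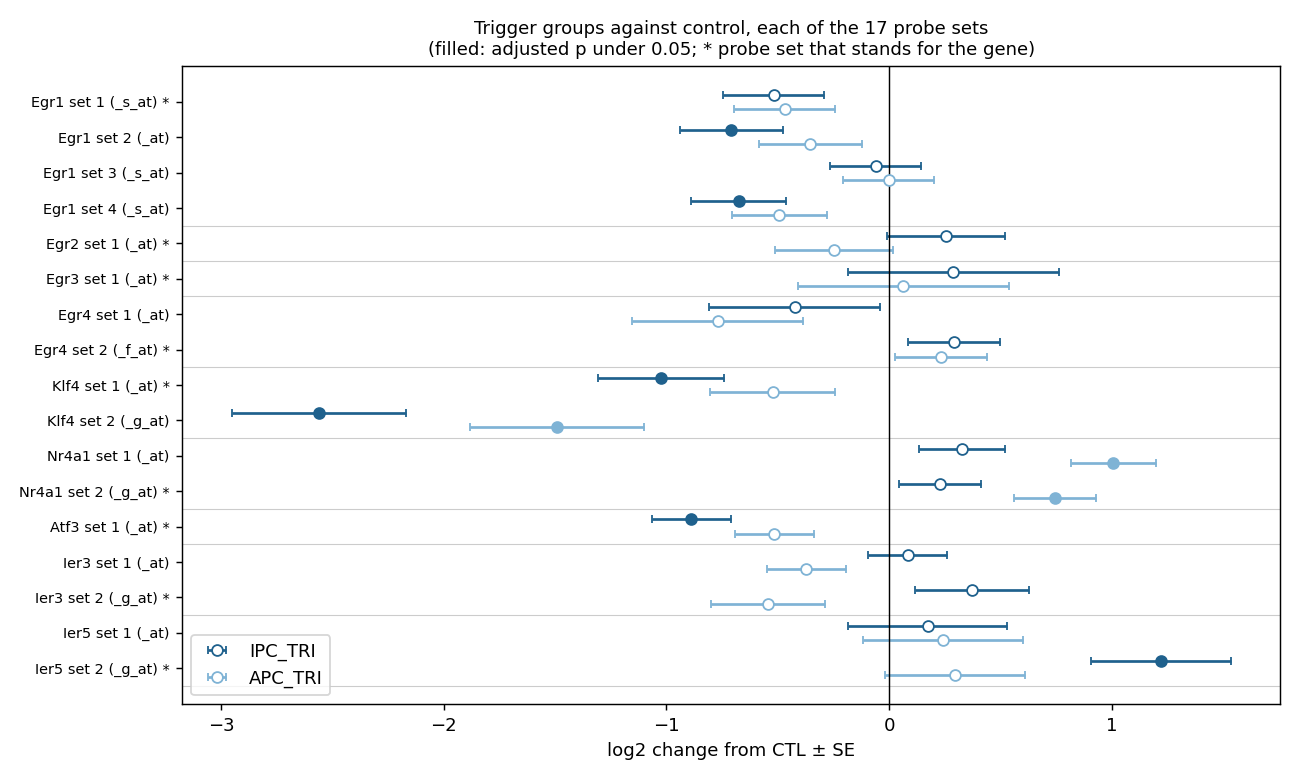
Log2 change from CTL with SE in the 2 trigger groups for each of the 17 probe sets, with the maker's suffix in brackets. Filled points have an adjusted p under 0.05, and an asterisk marks the probe set that stands for the gene. Both Klf4 sets lie below 0 in both triggers, both Nr4a1 sets lie above 0 (the brighter at -0.08 in IPC_TRI under median centring), and the 2 Ier5 sets differ in IPC_TRI.

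Set against its own trigger, each preconditioning protocol had Klf4, Egr1, Egr2 and Atf3 higher. In IPC against IPC_TRI, 5 of the 9 were called higher, where 12.2% of all genes were, and 1 was called lower, where 10.6% were, with 22.9% in either direction. The log2 changes were 3.51 ± 0.28 for Klf4, 1.83 ± 0.23 for Egr1, 1.09 ± 0.18 for Atf3, 1.07 ± 0.19 for Nr4a1 and 0.76 ± 0.26 for Egr2, with Ier3 at -0.73 ± 0.26. The call of Ier3 was lost under 6 alternatives and without any 1 of 7 arrays, IPC_TRI replicates 1, 2 and 3 and IPC replicates 1, 2, 4 and 5, with values from -1.10 to -0.40. That of Egr2 was lost under 6 alternatives and without IPC_TRI replicates 1, 2 or 5 or IPC replicates 3, 4 or 5, with values from 0.48 to 0.77. Without IPC_TRI replicate 5 the Klf4 change was 3.08 and that of Egr1 1.58. In APC against APC_TRI, 4 were called higher, where 8.91% of all genes were, and none lower, where 8.34% were, with 17.2% in either direction. Of the 17 probe sets, 11 and 9 were called in these contrasts, where 23.4% and 17.7% of all probe sets were. There Klf4 was at 2.70 ± 0.28, Egr1 at 2.02 ± 0.23, Egr2 at 1.13 ± 0.26 and Atf3 at 0.71 ± 0.18. Nr4a1 was at 0.06 ± 0.19 and was not called. The change in IPC against IPC_TRI less that in APC against APC_TRI was also fitted. It was 1.01 ± 0.26 for Nr4a1 and -1.31 ± 0.36 for Ier3, and 0 of the 9 genes were called for it.

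The levels of these genes in the preconditioned hearts were set against those in ISCH. Such a contrast compares levels and not the change from a baseline, and some baselines differed between the triggers and CTL. Whether the change from trigger to full protocol differed from that of ISCH against CTL was not tested. None of the 9 passed in IPC against ISCH (limma, 2 at an unadjusted p under 0.05), where 0.0951% of all genes did. None passed in APC against ISCH (3 at an unadjusted p under 0.05), where 0.127% did. None of their 17 probe sets passed either, where 0.172% and 0.267% of all probe sets did. Klf4 differed by 0.52 in IPC, with a 95% interval from -0.05 to 1.10, and by 0.21 in APC, from -0.36 to 0.79. The fainter Klf4 probe set did not overlap with ISCH in either group, at 0.99 ± 0.39 in IPC (adjusted p = 0.317) and 0.65 ± 0.39 in APC (adjusted p = 0.530). For Egr1 the interval was 0.02 to 0.94 in IPC (adjusted p = 0.433) and 0.26 to 1.19 in APC (adjusted p = 0.163). Without ISCH replicate 1 the Egr1 differences were 0.25 ± 0.21 in IPC (adjusted p = 0.766) and 0.49 ± 0.21 in APC (adjusted p = 0.34). Nr4a1 lay lower in APC than in ISCH by a log2 change of -0.61, with an interval from -0.99 to -0.23 (adjusted p = 0.148), and at -0.11 in IPC, from -0.49 to 0.27. Without ISCH replicate 1 the latter was 0.01. Egr2 differed from ISCH by 0.54 in IPC and 0.40 in APC, or by 0.19 and 0.05 without that array. With array weights in the fit, Klf4 passed in IPC against ISCH (0.62, adjusted p = 0.0467), and Egr1 (0.58, adjusted p = 0.0366) and Nr4a1 (-0.59, adjusted p = 0.0442) passed in APC against ISCH.

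IPC and APC were also set against each other, as were the triggers. In IPC against APC none of the 9 passed (limma, 1 at an unadjusted p under 0.05), where 0% of all genes did, and the log2 differences ran from -0.48 for Egr3 to 0.50 for Nr4a1. In IPC_TRI against APC_TRI none passed (4 at an unadjusted p under 0.05), where 0.349% of all genes and 0.439% of all probe sets did. The differences there ran from -0.52 for Nr4a1 to 0.92 for Ier5, the latter with a 95% interval from 0.28 to 1.56 (adjusted p = 0.147).

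The other early response genes were a list of 49, of which 30 were on the array and 28 were tested. In ISCH 4 were higher and 4 lower, where 3.39% and 4.91% of all genes were, with a median log2 change of 0.18 against -0.01 over all genes. The higher ones included Jun at 2.64 ± 0.22, a subunit of AP-1, and Dusp1 at 1.58 ± 0.17, a phosphatase that switches off MAP kinases. The lower ones included Cebpd at -1.81 ± 0.36 and Ptgs2, the inducible cyclooxygenase, at -1.33 ± 0.35. In IPC 6 were higher and 0 lower, against 1.52% and 2.09% of all genes, and in APC 4 were higher and 2 lower, against 1.08% and 2.19%. With the triggers 1 rose and 2 fell in IPC_TRI, where 6.94% and 8.75% of all genes did. Sgk1, a kinase induced by serum and glucocorticoids, fell by 0.68 (adjusted p = 0.022), Btg1 fell by 0.38 (adjusted p = 0.0431), and Hbegf, an EGF receptor ligand, rose by 0.63 (adjusted p = 0.023). In APC_TRI only Sgk1 of the 28 passed, where 7.89% of all genes did, and it fell by 0.76 (adjusted p = 0.0164). The list's median log2 change was -0.10 in IPC_TRI and -0.18 in APC_TRI, against -0.02 and 0.01 over all genes.

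Of the kinases and factors that regulate early response transcription, 9 of 19 were tested. None passed in ISCH, IPC, APC, IPC_TRI or APC_TRI against CTL, where 8.30%, 3.61%, 3.26%, 15.7% and 7.89% of all genes did. In IPC against IPC_TRI the kinase Map2k2 was called lower at -0.54 ± 0.15, where 10.6% of all genes were. Of 16 genes known as targets of Egr1 or Klf4, 14 were tested. In ISCH 4 of them were lower and 1 higher, against 4.91% and 3.39% of all genes, with a median of -0.22 over the 14. The lower ones were the adhesion molecules Vcam1 (-2.38 ± 0.26) and Icam1 (-2.36 ± 0.28), the chemokine Ccl2 (-1.91 ± 0.22) and the hyaluronan receptor Cd44 (-1.29 ± 0.30). Thbd, the anticoagulant thrombomodulin of endothelium, was higher at 0.66 ± 0.16. In IPC_TRI 3 fell, where 8.75% of all genes did, which were Pdgfb by 1.15 (adjusted p = 0.024), Cd44 by 1.05 (adjusted p = 0.0156) and Vcam1 by 0.89 (adjusted p = 0.0172). Of 8 genes of the integrated stress response near Atf3, 5 were tested. Ddit3, Ppp1r15a and Hspa5 were higher in ISCH, IPC and APC, where 3.39%, 1.52% and 1.08% of all genes were, and in IPC_TRI Ddit3 fell by 0.99 (adjusted p = 0.0038) and Hspa5 by 0.56 (adjusted p = 0.0264), where 8.75% of all genes fell.

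The genes whose profile came closest to a member over the 30 arrays were found by the root mean square difference of centred log2 values. For Klf4 they were Jun at 0.49, Hsph1 at 0.56 and Ddit3 at 0.69, where Klf4 itself varied by 1.47 about its mean. For Egr1 they were Ddit3 at 0.38, Fos at 0.42 and Dnaja1 at 0.44, where Egr1 varied by 0.89. Hsph1 and Dnaja1 code for chaperones. For Nr4a1 the closest were Dusp1 at 0.43, Gne at 0.44 and Nfib at 0.44, against its own 0.58. For Atf3 they were Ifrd1 at 0.30, Camk2d at 0.31 and Dnaja4 at 0.31, against 0.47. For Egr4 the closest gene, Cyp2b15, was at 0.26 where Egr4 itself varied by 0.34 about its mean. All points share the same arrays and normalization.

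**Figure D5:**
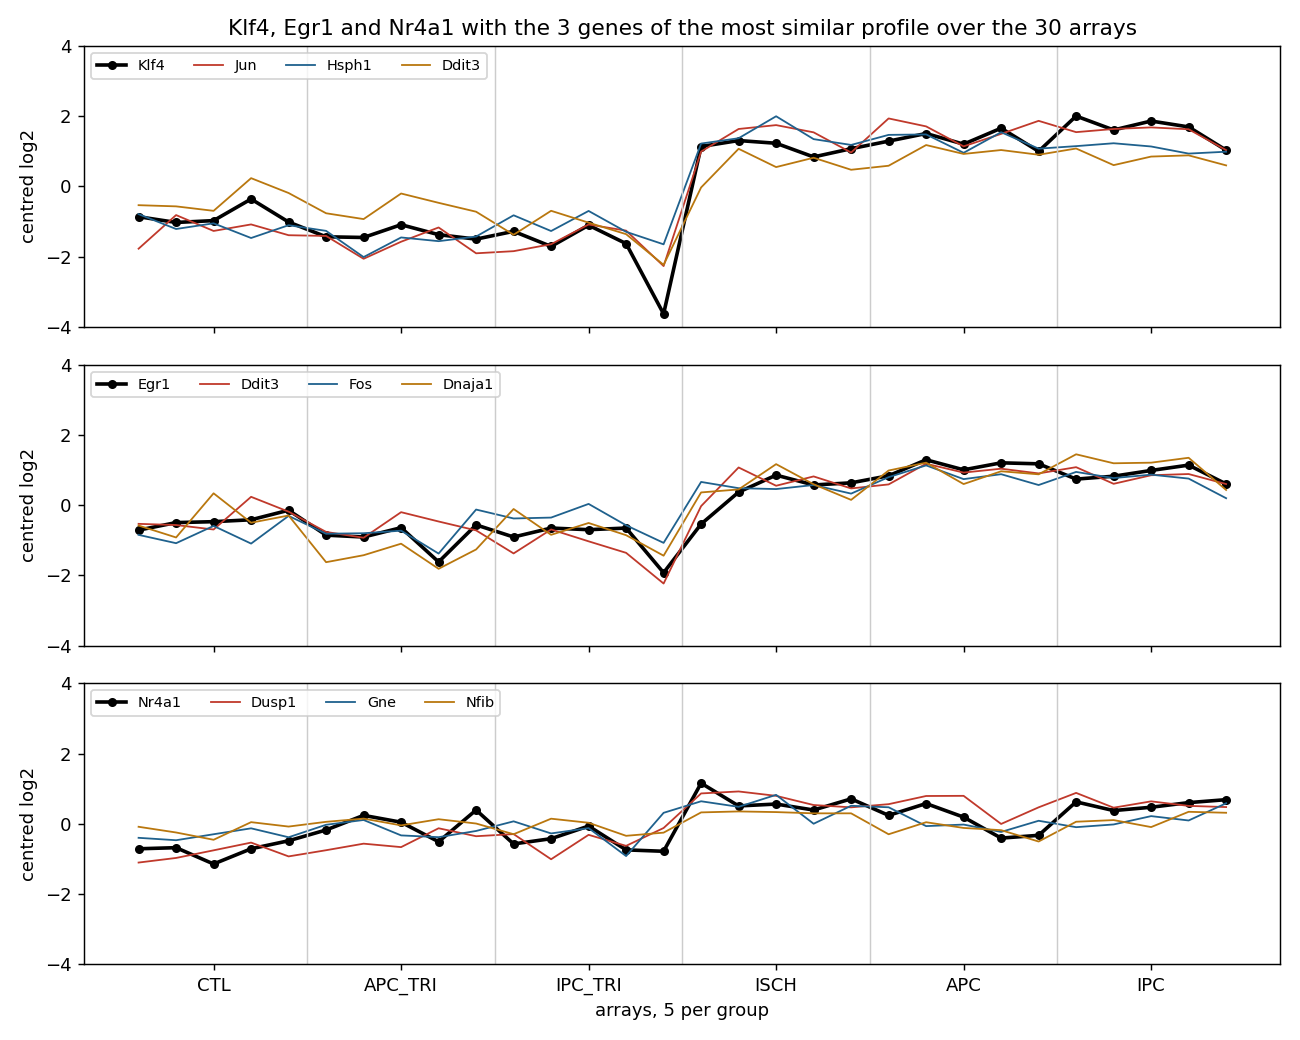
Centred log2 values of Klf4, Egr1 and Nr4a1 (black) and of the 3 genes closest to each over the 30 arrays, in groups of 5. Jun, Hsph1 and Ddit3 step up with Klf4 between the trigger groups and ISCH, and IPC_TRI replicate 5 is the lowest point of Klf4 and of Egr1.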

How the data were processed

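Total RNA of rat left ventricle was hybridised to Affymetrix arrays with the maker's recommended procedures, per the labels' protocols. The authors deposited linear intensity values for 8799 probe sets on each array. The 2% trimmed mean lay between 500.8 and 501.0 on every array, so the deposited values had been scaled; the software behind them is not given in the sources used here. The number of arrays limits the precision.

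Here 59 control probe sets were left out, and the log2 of intensity plus 16 was quantile normalized. Those in the lowest 40% by mean signal were dropped, which left 5244 probe sets of 3155 named genes. Gene names came from the platform table, in which 7006 probe sets had 1 symbol, 308 several and 1426 none, and 0 symbols needed updating. The probe set of highest mean stood for a gene. One limma 3.58.1 model (R 4.3.3, eBayes with trend) held the 6 groups, and p-values were adjusted by Benjamini-Hochberg per contrast over all probe sets, with a call at an adjusted p under 0.05. Fold changes are on the log2(intensity + 16) scale and understate changes of faint genes. The fit was tested on simulated data. Tables and figures used Python 3.11.15 with pandas 2.3.3 and matplotlib 3.10.9.

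The members, lists, tests and alternatives were chosen with earlier results of these data known. All 9 genes are named, with up to 4 called members per list. The contrasts of ISCH, IPC and APC with CTL and of each protocol with its trigger carry no p-value. Promoter sequences are RefSeq's, assembly GRCr8. Replicate numbers are shared between groups, but correlations of same-numbered arrays' deviations ran from -0.15 to 0.21, so the numbers were not taken as pairs. Alternatives were pseudocounts of 1 and 64, other filters and scalings, a replicate block, a fit of 2 groups, array weights, quality covariates, other probe sets and leaving out arrays.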

Additional observations from a re-analysis of the deposited data

Results flagged for a closer look

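Of the 54 groups of 5 arrays looked at, 9 genes in 6 protocols, 3 held an array far from the other 4, where chance gives about 1 in 20. Klf4 in IPC_TRI replicate 5 read 146.8 units against 397.9 to 614.4 in the rest of the group. Egr1 in the same array read 2513.0 against 5073.6 to 7340.7 on its brightest probe set. On the other Egr1 probe sets that array read 943.8 against 1539.1 to 2432.7, 1479.7 against 752.5 to 1863.8, and 1772.4 against 631.5 to 1540.5. This array had the lowest mean correlation with its group over all probe sets, at 0.853. Klf4 in CTL replicate 4 read 1135.6 against 667.2 to 783.0.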

How the results depend on the processing

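The 9 genes in 11 contrasts gave 2222 values under the alternatives; 2066 kept their direction and side of the threshold, 43 lost and 32 gained a call, and 81 values of 26 differences changed sign, of which 0 were called in either fit. With every probe set counted, probe sets called were 7 in ISCH, 8 in IPC, 8 in APC, 6 in IPC_TRI and 3 in APC_TRI against CTL, 11 in IPC against IPC_TRI and 9 in APC against APC_TRI, since 17 probe sets then stood for 9 genes. Array weights gave 5 genes in APC_TRI against CTL, 1 in IPC against ISCH and 2 in APC against ISCH, where the main fit gave 1, 0 and 0. In APC_TRI against CTL, median centring gave 0 genes, a fit of only these groups 2, and leaving out ISCH replicate 1 and IPC_TRI replicate 5 together 4; the last gave 1 in IPC_TRI against APC_TRI. The beta-actin ratio as a covariate left 1 gene, Atf3, in IPC_TRI against CTL. The cause of these moves was not tested. Leaving out each array in turn gave 2 to 4 genes in ISCH, 3 to 4 in IPC and 3 to 3 in APC against CTL, 3 to 3 in IPC_TRI and 1 to 2 in APC_TRI against CTL (2 without APC_TRI replicate 3), 4 to 6 in IPC against IPC_TRI, 4 to 4 in APC against APC_TRI, 0 to 0 in IPC and APC against ISCH and in IPC against APC, and 0 to 1 in IPC_TRI against APC_TRI (1 without IPC_TRI replicate 5, Ier3). With the replicate number as a block, 4 genes were called in APC against CTL, Egr2 being added, and 3 in IPC_TRI and 1 in APC_TRI against CTL; no other call changed. Same-numbered arrays deviated together in 9 of 75 pairs (correlation over 0.1), and 7 of 30 arrays correlated best with their own number. Median centring moved the median of all genes by 0.15 in IPC against IPC_TRI, -0.13 in IPC_TRI against CTL and -0.11 in IPC_TRI against APC_TRI, and the values as deposited moved it by -0.10 in the first of these. The SE of Egr3 in a contrast was 0.47, the largest of the 9.

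The differences whose sign turned were at most 0.42 in size in the main fit, and the cause was not tested. For Atf3 in IPC against APC the value was -0.032 as deposited, -0.026 with median centring, -0.038 with the beta-actin covariate and -0.0036 with the spike covariate. Ier3 in IPC against ISCH was at 0.052 as deposited, 0.20 with median centring, 0.027 with the spike covariate, 0.065 without both ISCH replicate 1 and IPC_TRI replicate 5, 0.083 with array weights and 0.11 as the mean over its probe sets, and in APC against CTL at -0.0074 with weights and -0.11 over its probe sets. Median centring turned Egr4 in IPC against IPC_TRI (0.12), IPC against ISCH (0.029) and IPC_TRI against APC_TRI (-0.14), and Nr4a1 in IPC against ISCH (0.067) and IPC_TRI against CTL (-0.076). The beta-actin covariate turned Egr1 in IPC_TRI against APC_TRI (0.0020), Egr4 in IPC against IPC_TRI (0.014) and Nr4a1 in APC against APC_TRI (-0.035). The spike covariate turned Egr2 (-0.016) and Klf4 (-0.00073) in APC against ISCH, and Egr4 in IPC against ISCH (0.20) and ISCH against CTL (-0.12). Without both of these arrays, Egr1 (0.19) and Egr4 (-0.13) turned in IPC_TRI against APC_TRI, Egr3 in APC against ISCH (0.11), Egr4 in IPC against IPC_TRI (0.015) and Nr4a1 in IPC against ISCH (0.0094). Array weights turned Egr1 (0.15) and Egr4 (-0.22) in IPC_TRI against APC_TRI, Egr3 in APC against ISCH (0.0083), Egr4 in IPC against IPC_TRI (0.10) and Nr4a1 in APC against APC_TRI (-0.00064). The mean over probe sets turned Egr4 in APC against APC_TRI (0.37), APC against CTL (0.10), APC_TRI against CTL (-0.27), IPC against APC (-0.10), IPC against IPC_TRI (0.070) and IPC_TRI against CTL (-0.067), and Ier5 in APC against APC_TRI (-0.062), APC against ISCH (-0.030), IPC against APC (-0.19) and IPC against ISCH (-0.22). Leaving out each array in turn ran from -0.12 to 0.13 for Atf3 and -0.026 to 0.13 for Ier5 in IPC against APC, from -0.23 to 0.19 for Egr1, -0.098 to 0.69 for Egr3 and -0.13 to 0.17 for Egr4 in IPC_TRI against APC_TRI, and from -0.24 to 0.20 for Egr3 and -0.21 to 0.47 for Ier5 in APC against ISCH. It ran from -0.061 to 0.26 and -0.034 to 0.75 for Egr3 in APC_TRI and IPC_TRI against CTL, from -0.077 to 0.19 for Ier3 in APC against CTL, from -0.29 to 0.015 for Egr4 in IPC against IPC_TRI and from -0.075 to 0.17 for Nr4a1 in APC against APC_TRI. In IPC against ISCH it ran from -0.19 to 0.12 for Ier3, -0.16 to 0.52 for Ier5 and -0.18 to 0.0092 for Nr4a1.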
